A study of Mus musculus with 2 samples.

Results

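The genes described here encode proteins of the lysosome, and all 37 genes of the list had a row among the 19394 genes of the matrix. They are a list of symbols of known lysosomal genes, drawn up with earlier results of these data known, and fall into 5 classes: 10 cathepsins, 7 glycosidases, 8 membrane proteins, 6 proteins of lipid handling and 3 proteins of the proton pump. Grn, Tpp1 and Tfeb belong to none of these. Their transcripts were counted in cultured mouse renal progenitors of the Pax2 lineage given vehicle (DMSO) or 0.2 µM panobinostat, an inhibitor of histone deacetylases, for 48 h. All cells came from healthy mice aged 9 weeks, strain C57Bl/6, which carried Pax2.rtTA;TetO.Cre together with the reporter R26.mT/mG, so that rtTA driven by Pax2 lets Cre switch the reporter to GFP. Glomeruli from kidney cortex were grown for 5 days in 20% serum, GFP-positive cells of the outgrowth were sorted and starved for 16 h, and both treatments were given in medium with 10% serum. The labels give 2 mice for each sample and do not say whether both came from the same mice, and each treatment is 1 library of 10x 3′ single-cell RNA sequencing.

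Lysosomes are acidic compartments in which proteins, sugars and lipids from endocytosis and autophagy are broken down. Cathepsins cut proteins, glycosidases remove sugars, a proton-pumping ATPase keeps the lumen acidic, and heavily glycosylated membrane proteins line it. Many genes of this set carry a palindromic E-box near their start sites that is bound by TFEB and its relatives TFE3 and MITF. In the kidney, the breakdown of filtered and reabsorbed protein is a task of lysosomes.

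The vehicle library held 2854 cells and 90754967 UMIs (distinct counted molecules), and the panobinostat library 2281 cells and 104188927 UMIs. The median cell had 27924 UMIs with vehicle and 42394 with panobinostat. Of the 8 markers of the parietal epithelial lineage, Pax2, Pax8, Cldn1, Krt8, Krt18, Cd24a, Vcam1 and Cd44, all reached 10 CPM (UMIs per 1000000 of the library) in at least 1 library. Their sum went from 9043 to 4998 CPM, with 7 of 8 intervals below equality, a median log2 ratio of -0.48, and 2 genes, Krt8 and Vcam1, at least 2-fold lower, as were 11% of all genes. Summed over their lists, the 6 endothelial markers went from 11.8 to 18.7 CPM through Flt1 (2.74 to 15.5 CPM), while Emcn (6.68 to 0.0864 CPM), Cdh5 and Pecam1 were lower. Summed in the same way, fibroblast and mesangial markers went from 1.15 to 6.57 CPM, tubule markers from 0.771 to 12.996 CPM, and podocyte markers from 9.99 to 20.5 CPM. Umod and Wt1 had 0 UMIs with vehicle, and Flt1, Lrp2 and Synpo were called higher. The part of such cells in the lysosome values was not tested.

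With 1 library per treatment there is no spread between samples, no test was run, and the effect of treatment and other differences of these 2 libraries cannot be told apart. Intervals are exact 95% limits for counting error only. Calls of higher or lower were made for genes at 10 CPM or more in either library (the floor), from a ratio of 2-fold or more whose interval did not include equality.

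Lysosome genes were more often higher than lower with panobinostat. Of the 37 genes, 34 passed the floor of 10 CPM, and of these 9 were called higher (Cd68, Ctsf, Ctsl, Grn, Ppt1, Ctsz, Lipa, Lamp2 and Gaa) and 1 lower (Gusb). Of all 8872 genes past the floor, 9.85% were called higher and 11% lower by the same rule. At 1.5-fold, 20 were higher and 1 lower, against 19.3% and 23.2% of all genes. In either direction, 20.8% of all genes passed at 2-fold and 42.5% at 1.5-fold. Counting error alone left 27 of the 37 ratios above equality, 5 below it and 5 unresolved. Of all genes past the floor, 46.3% had a ratio above 1, and the share beyond counting error was not computed. The median log2 ratio over all 37 genes, with no floor, was 0.67, beside -0.07 over all genes past the floor.

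Summed, the 37 genes took 4947 CPM with vehicle and 9627 CPM with panobinostat, a log2 ratio of 0.96 (interval 0.955 to 0.966). Ctsl alone made up 55.2% of this increase and Ctsd 15.8%. Without both, the other 35 genes went from 3231 to 4587 CPM, a log2 ratio of 0.51. Cells differed in depth as well: the mean cell held 157 lysosome UMIs with vehicle and 439.7 with panobinostat, a log2 ratio of 1.48 when UMIs per cell were not scaled. Among cells of matched depth, cut to the range of 18663 to 42394 UMIs, the summed log2 ratio of CPM was 1.05. Their median totals still differed, at 27301.5 UMIs with vehicle and 33490 with panobinostat.

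**Figure D1:**
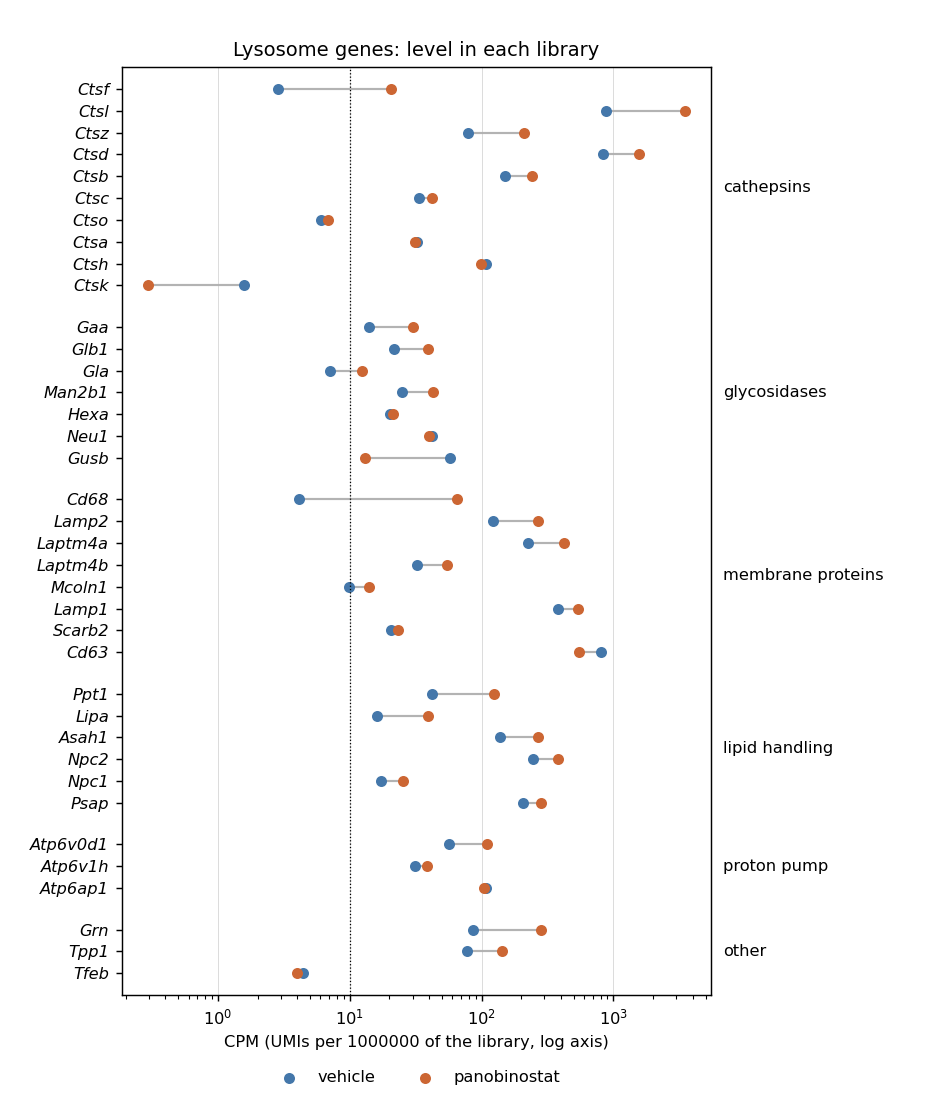
Level of each lysosome gene in the vehicle library (blue) and the panobinostat library (orange), in CPM on a log axis, grouped by class, with the floor of 10 CPM dotted. Ctsl runs from 880.4 to 3463 CPM and Cd68 from 4.11 to 65.5 CPM, while Gusb and Cd63 run the other way.

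RefSeq windows on GRCm38.p6, from 250 bases before to 50 bases after each start site, were found for 31 of the 37 genes. The letters CACGTG, read on both strands, stood in the windows of 10 of the 31 genes (32.3%) and of 8.09% of all 27025 genes with a window. The longer TCACGTG, which contains the first motif, stood in 8 of the 31 (25.8%) and in 4.29% of all genes. Shown here, 5′ to 3′ on the gene's strand, are 30 bases around 1 match in each of 9 genes, with the match in capitals.
Ctsa: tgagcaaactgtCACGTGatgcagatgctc
Ctsd: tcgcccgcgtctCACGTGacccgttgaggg
Ctsf: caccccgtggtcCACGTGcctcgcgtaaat
Ctsl: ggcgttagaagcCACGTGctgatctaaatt
Gla: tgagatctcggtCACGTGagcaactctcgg
Glb1: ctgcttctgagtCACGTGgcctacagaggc
Gaa: tttctgtgcgatCACGTGtttgactctgac
Mcoln1: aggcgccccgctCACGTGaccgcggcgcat
Atp6v0d1: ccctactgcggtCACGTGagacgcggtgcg

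These windows lie at chr2:164833749-164833778 (Ctsa, plus strand), chr7:142387908-142387937 (Ctsd, minus strand), chr19:4855074-4855103 (Ctsf, plus strand), chr13:64370739-64370768 (Ctsl, minus strand), chrX:134601182-134601211 (Gla, minus strand), chr9:114401018-114401047 (Glb1, plus strand), chr11:119267811-119267840 (Gaa, plus strand), chr8:3500462-3500491 (Mcoln1, plus strand), chr8:105566050-105566079 (Atp6v0d1, minus strand). RefSeq and GENCODE M21 place some start sites differently. The windows shown for Ctsa, Ctsd, Ctsl and Mcoln1 lie inside the GENCODE spans of these genes, and the others shown lie before theirs. No window was matched for Ctsb, Ctsh, Laptm4b, Npc1, Asah1 and Atp6v1h.

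Lamp1 had 4 matches within its 250 bases before the start site (chr8:13158911-13159160, plus strand), and the capitals mark them. Cd68 (chr11:69666171-69666420, minus strand) and Gusb (chr5:130003050-130003299, minus strand), which had the highest log2 ratio and the lowest among the genes past the floor, are shown beside it because neither window held the motif.
Lamp1: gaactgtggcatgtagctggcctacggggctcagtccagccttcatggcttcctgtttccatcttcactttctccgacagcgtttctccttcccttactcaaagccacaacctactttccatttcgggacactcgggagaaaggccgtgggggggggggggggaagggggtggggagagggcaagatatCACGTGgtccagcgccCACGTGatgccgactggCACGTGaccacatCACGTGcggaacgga
Cd68: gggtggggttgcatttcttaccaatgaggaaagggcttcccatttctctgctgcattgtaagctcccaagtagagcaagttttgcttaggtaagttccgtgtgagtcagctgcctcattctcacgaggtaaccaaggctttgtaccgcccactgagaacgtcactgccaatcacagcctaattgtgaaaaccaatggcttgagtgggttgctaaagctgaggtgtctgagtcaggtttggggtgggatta
Gusb: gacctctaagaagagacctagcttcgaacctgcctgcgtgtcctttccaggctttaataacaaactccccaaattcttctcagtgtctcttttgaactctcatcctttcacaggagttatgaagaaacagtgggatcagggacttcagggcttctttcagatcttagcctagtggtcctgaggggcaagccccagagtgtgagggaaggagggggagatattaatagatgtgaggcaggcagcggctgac

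Genes with and without the motif overlapped widely in their log2 ratios. The 10 genes with a match had a median log2 ratio of 0.88 and ran from -0.05 to 2.86, with 3 called higher (Ctsf, Ctsl and Gaa) and 0 lower. Of these 3, only Gaa held the longer TCACGTG. For the 21 genes with a window and no match the median was 0.46, from -2.39 to 3.995, with 6 called higher and 1 lower. A match is a description of these letters, and binding was not measured.

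Among the cathepsins, Ctsl, Ctsf and Ctsz were higher and none was called lower. Ctsl, which encodes the cysteine protease cathepsin L and lies on chromosome 13 (64359337 to 64370890 in GRCm38), had 79899 UMIs or 880.4 CPM with vehicle and 360855 UMIs or 3463 CPM with panobinostat. It was 3.93-fold higher (log2 ratio 1.98, interval 1.96 to 1.99), and the mean cell held 28.0 of its UMIs with vehicle and 158 with panobinostat. Ctsf, the cysteine protease cathepsin F (chromosome 19, 4855130 to 4860918), had 259 UMIs or 2.85 CPM (2.52 to 3.22) and 2152 UMIs or 20.7 CPM (19.8 to 21.5), 7.24-fold higher. It passed the floor only through the panobinostat library, which favours a call in that direction. Ctsz, the carboxypeptidase cathepsin Z, went from 79.0 to 211.5 CPM, 2.68-fold higher (log2 ratio 1.42, interval 1.38 to 1.46).

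The remaining cathepsins stayed under 2-fold or under the floor. Ctsd, the aspartic protease cathepsin D, went from 835 to 1577 CPM (log2 ratio 0.92, interval 0.90 to 0.93), and Ctsb, another abundant cysteine protease, from 151 to 240.6 CPM (0.67). The dipeptidyl peptidase Ctsc stood at 33.2 and 42.3 CPM. Ctsh, an aminopeptidase, was close to level at 109 and 98.6 CPM (log2 ratio -0.14), as was the carboxypeptidase Ctsa, which also shields other lysosomal enzymes, at 32.4 and 31.3 CPM (-0.05). Ctso (6.10 and 6.82 CPM) did not reach the floor. Ctsk, the collagen-cutting cathepsin K of osteoclasts, was also under the floor, with 142 UMIs or 1.56 CPM (1.32 to 1.84) and 31 UMIs or 0.298 CPM (0.202 to 0.422), a log2 ratio of -2.39 (-3.00 to -1.83). The class median was 0.51 over all 10 genes, and the summed level went from 2131 to 5692 CPM, or from 1251 to 2229 CPM without Ctsl.

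Glycosidases split in direction. Gaa, the acid alpha-glucosidase that degrades glycogen, had 1260 UMIs or 13.9 CPM with vehicle and 3136 UMIs or 30.1 CPM with panobinostat. It was 2.17-fold higher (a log2 ratio of 1.12, with limits of 1.022 to 1.21). This call was lost with TMM factors (1.00, just under the limit), with DESeq2 size factors (0.99) and over cells called G1 (0.81). The beta-galactosidase Glb1 (21.8 and 39.2 CPM, log2 ratio 0.85), the alpha-galactosidase Gla (7.09 and 12.4 CPM, 0.81) and the alpha-mannosidase Man2b1 (24.8 and 42.95 CPM, 0.79) were higher by less than 2-fold. Hexa, a beta-hexosaminidase subunit, stood at 20.1 and 21.4 CPM and the sialidase Neu1 at 41.8 and 40.1 CPM, both with intervals that include equality. With unscaled UMIs per cell, Neu1, Ctsa, Ctsh and Atp6ap1 had ratios above equality, and Hexa was just below it with TMM factors (-0.03).

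Gusb, the beta-glucuronidase, stood apart from the other glycosidases. It had 5208 UMIs or 57.4 CPM (55.8 to 58.97) with vehicle and 1350 UMIs or 12.96 CPM (12.3 to 13.7) with panobinostat, 4.43-fold lower (log2 ratio -2.15, interval -2.23 to -2.06). It lies on chromosome 5 (129989011 to 130003049). Because Gusb had the highest level of the class with vehicle, the summed glycosidases moved little, from 187 to 199 CPM, although the class median was 0.79.

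The membrane proteins held the gene with the largest ratio. Cd68, a heavily glycosylated protein of late endosomes and lysosomes that is widely used as a macrophage marker, lies on chromosome 11 (69664213 to 69666153). It had 373 UMIs or 4.11 CPM (3.70 to 4.55) with vehicle and 6829 UMIs or 65.5 CPM (64.0 to 67.1) with panobinostat. It was 15.9-fold higher (a log2 ratio of 3.995, with limits of 3.84 to 4.15), and it too passed the floor only through panobinostat. Of 12 macrophage markers, 7 had a row, and they summed to 2.26 CPM with vehicle and 3.61 CPM with panobinostat. Among them Lyz2 had 1 and 15 UMIs, Fcer1g 9 and 10, Itgam 2 and 3, and Ptprc, which encodes CD45, 55 and 206. Csf1r had 41 and 56 UMIs, while Aif1 (39 and 30) and Cx3cr1 (58 and 56) had fewer with panobinostat. Of the 7 ratios of CPM, 2 had intervals above equality, those of Ptprc and Lyz2, and 5 had intervals that include it. C1qa, C1qb, C1qc, Adgre1 and Tyrobp had no row in the matrix, so their levels are not known here. In the 2704 vehicle and 1976 panobinostat cells without a UMI of any of the 7 markers, Cd68 stood at 4.05 and 66.6 CPM, a log2 ratio of 4.04.

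Lamp2, one of the main membrane glycoproteins and a receptor of chaperone-mediated autophagy, was 2.20-fold higher, with 11087 UMIs or 122 CPM and 28005 UMIs or 269 CPM (log2 ratio 1.14, interval 1.11 to 1.17). Over cells called G1 its log2 ratio was 0.76, below the limit. Its partner Lamp1 went from 381 to 536 CPM (0.49), Laptm4a, a small transmembrane protein, from 225 to 420.5 CPM (0.90) and its relative Laptm4b from 32.5 to 54.4 CPM (0.74). The calcium channel Mcoln1 stood at 9.87 and 13.98 CPM (0.50) and Scarb2, a lysosomal membrane receptor, at 20.6 and 23.2 CPM (0.18). The tetraspanin Cd63, a protein of late endosomes and exosomes, was the member of this class that was lower, at 808 and 551 CPM (log2 ratio -0.55, interval -0.57 to -0.53). The mean cell held nearly equal numbers of its UMIs, 25.7 and 25.2. The class median was 0.62, and the sum went from 1603 to 1933 CPM.

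Every lipid-handling gene was higher, with no interval reaching equality, while 46.3% of all genes past the floor had a ratio above 1. Ppt1, which removes fatty acids from proteins, had 3821 UMIs or 42.1 CPM with vehicle and 12881 UMIs or 123.6 CPM with panobinostat. It was 2.94-fold higher (a log2 ratio of 1.55, with limits of 1.502 to 1.61). Lipa, the acid lipase that frees cholesterol from its esters, had 1449 UMIs or 15.97 CPM and 4115 UMIs or 39.5 CPM, 2.47-fold higher (1.31). Over cells called G1 its log2 ratio was just short of 1, at 0.999. The acid ceramidase Asah1 went from 138 to 268 CPM (0.96), the cholesterol carriers Npc2 from 244 to 382 CPM (0.65) and Npc1 from 17.2 to 25.3 CPM (0.55), and Psap, the precursor of the saposins, from 206 to 283 CPM (0.46). The class median was 0.80 over 6 genes, and the sum went from 663 to 1121 CPM.

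The 3 proton pump genes stayed under 2-fold. Atp6v0d1, a subunit of the membrane sector, stood at 56.4 and 109.8 CPM (log2 ratio 0.96, interval 0.91 to 1.01), Atp6v1h, a regulatory subunit of the cytosolic sector, at 31.2 and 38.2 CPM (0.29), and the accessory protein Atp6ap1 at 108 and 103.6 CPM (-0.06). Their median was 0.29.

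Of the genes outside these classes, Grn, which encodes progranulin, had 7782 UMIs or 85.7 CPM with vehicle and 29302 UMIs or 281 CPM with panobinostat. It was 3.28-fold higher (a log2 ratio of 1.71, with limits of 1.68 to 1.75). The tripeptidyl peptidase Tpp1 went from 77.5 to 144 CPM (0.89). Tfeb, the transcription factor of the lysosomal gene network, stayed under the floor with 399 and 412 UMIs, 4.40 CPM (3.98 to 4.85) and 3.95 CPM (3.58 to 4.36), and its interval includes equality (-0.36 to 0.05).

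**Figure D2:**
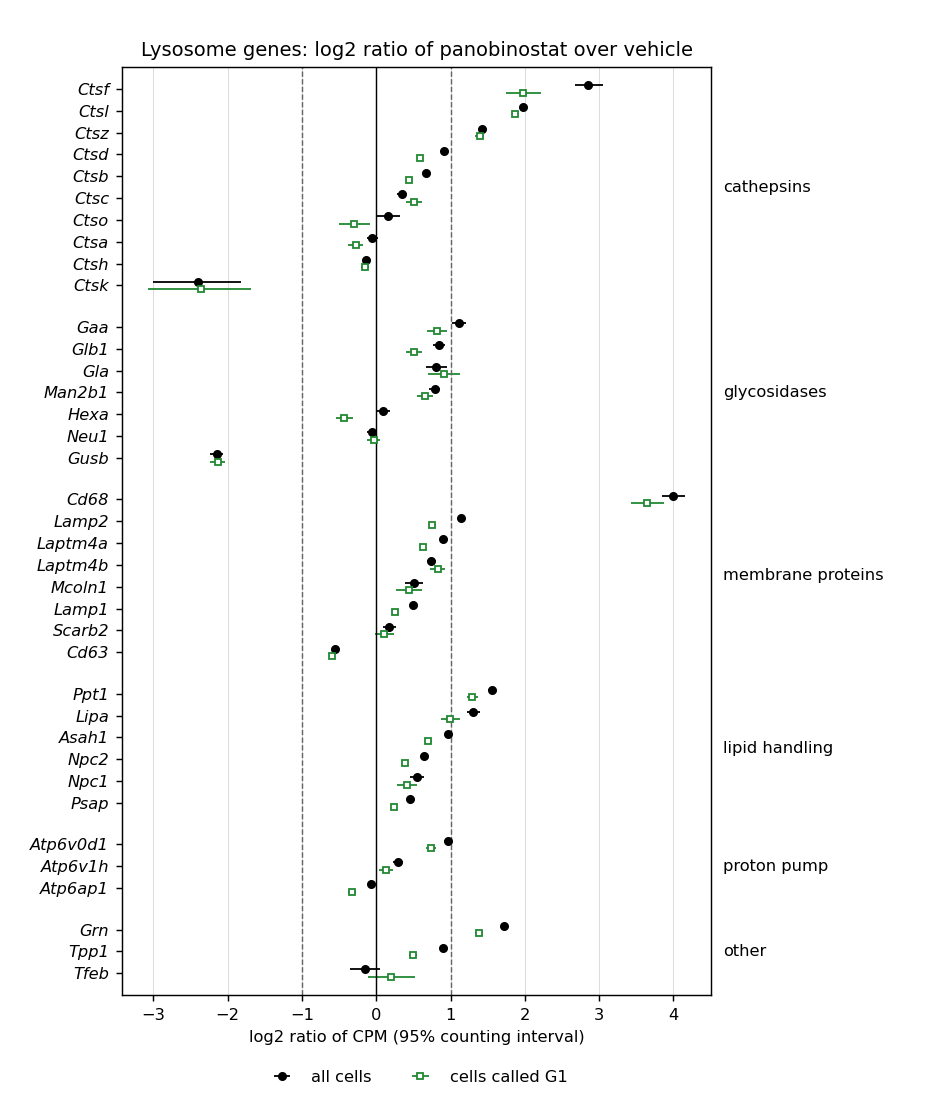
Log2 ratio of CPM, panobinostat over vehicle, for each lysosome gene with its 95% counting interval, over all cells (black) and over cells called G1 (green squares), with dashed lines at 2-fold. Cd68 (3.995) and Ctsf (2.86) lie farthest right and Ctsk (-2.39) and Gusb (-2.15) farthest left, and most green squares lie to the left of their black points.

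Some of these genes overlap a neighbour on the opposite strand, and the sources used here do not give whether counting used the strand. Neighbours at a level that bears on this are Cap1 beside Ppt1 (106 and 98.7 CPM), Fdft1 beside Ctsb (64.2 and 71.2 CPM), Nelfcd beside Ctsz (33.5 and 16.8 CPM) and Fam171a2 beside Grn (18.2 and 17.99 CPM). Each of these 4 ratios was under 2-fold. Pltp beside Ctsa (0.485 and 9.72 CPM) and Grtp1 beside Lamp1 (1.58 and 8.66 CPM) were higher with panobinostat and at lower levels than Ctsa and Lamp1. An antisense transcript within Ctsl, Gm47123, stood at 0.650 and 4.85 CPM. On the same strand, Glb1 overlaps Tmppe (0.529 and 0.134 CPM). Ctsd overlaps Gm49369 and Ctsl the pseudogene Gm49230 on the same strand, and neither of these neighbours had a row.

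The difference in the summed share lay across nearly the whole population of cells. Ctsl made up 55.2% of the summed increase, and shares per cell without Ctsl were not computed. The 37 genes took a median of 0.479% of a vehicle cell's UMIs, with quartiles at 0.403% and 0.578%, and 0.953% of a panobinostat cell's UMIs, with quartiles at 0.817% and 1.13%. Of the panobinostat cells, 78.6% lay above the 95th percentile of vehicle cells (0.794%) and 1.53% lay below the vehicle median. In vehicle cells called G1 alone, the median was 0.560% and the 95th percentile 0.919%.

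The libraries differed in the level of cell cycle genes. The 42 S-phase genes summed to 1999.95 CPM with vehicle and 504 CPM with panobinostat, and the 52 G2/M genes to 5529 and 1267 CPM. Scored on S and G2/M genes, 1016 vehicle cells (35.6%) were called G1, 813 S and 1025 G2/M, against 2278 of 2281 panobinostat cells called G1. These calls are relative to the cells scored together. The 37 genes took 5671 CPM in vehicle cells called G1, 4780 CPM in S and 4424 CPM in G2/M. In G2/M, 26 of the 37 genes were lower than in G1 and 3 were higher beyond counting error, with a median log2 ratio of -0.41. Of the 31 that reached 10 CPM in either phase, 23 were lower and 2 higher, beside 32.4% and 42% of all 8455 such genes, whose median was 0.04. Ctsf, at 5.24 CPM in G1 and 1.57 CPM in G2/M, was the 1 gene past 2-fold. Ctsd went from 1046 to 696 CPM, Lamp2 from 159 to 99.6 CPM and Hexa from 28.8 to 14.8 CPM, while Gusb (56.7 and 55.3 CPM), Ctsh (109.3 and 108.1 CPM) and Ctsz (80.6 and 77.2 CPM) were close to level.

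Over cells called G1 in both libraries the shift towards panobinostat was smaller. The summed log2 ratio was 0.76, the median over the 37 genes 0.50, and 6 genes of 34 past the floor were called higher and 1 lower, beside 9.02% and 7.12% of all 8663 genes past the floor in these cells. Cd68 (3.65), Ctsf (1.98), Ctsl (1.86), Ctsz (1.39), Grn (1.39) and Ppt1 (1.29) kept their calls, as did Gusb (-2.14). Hexa, which went from 28.8 to 21.4 CPM in these cells, turned lower (-0.43), and so did Ctso (-0.30). Ctsa (-0.28, interval -0.37 to -0.18) and Atp6ap1 (-0.32, interval -0.37 to -0.27), near level over all cells, were lower in these cells. Tfeb turned the other way (0.20), with an interval that includes equality (-0.11 to 0.52). By class, the summed log2 ratios were 1.22 for cathepsins, -0.04 for glycosidases, 0.11 for membrane proteins, 0.51 for lipid handling and 0.13 for the proton pump. The class medians ordered them otherwise, at 0.47, 0.51, 0.54, 0.56 and 0.13 in the same order of classes.

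**Figure D3:**
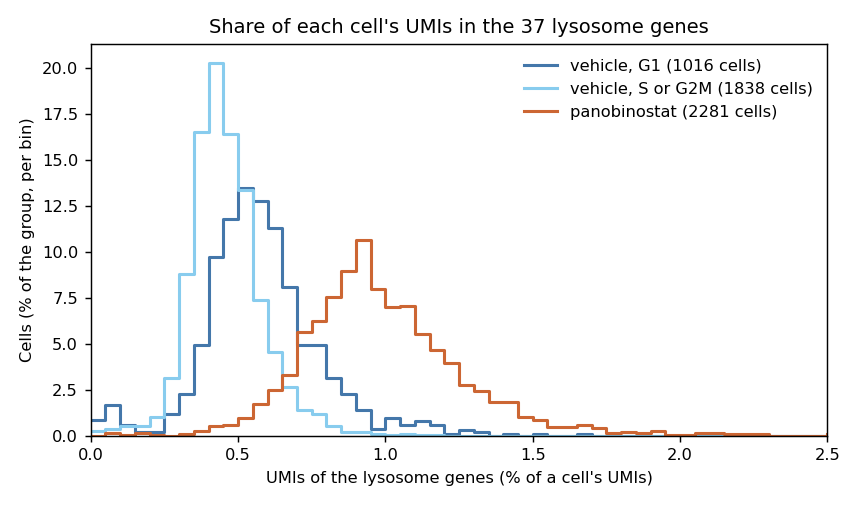
Share of each cell's UMIs in the 37 lysosome genes, as the percent of cells per bin, for vehicle cells called G1, vehicle cells called S or G2M, and panobinostat cells. The median was 0.479% over all vehicle cells and 0.953% over panobinostat cells, and the vehicle cells called G1 lie between the other groups (median 0.560%).

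To compare how many cells showed a gene, every cell was thinned to 18663 UMIs, and 453 vehicle and 60 panobinostat cells of lower depth were dropped. Cd68 was seen in 7.33% of vehicle cells (exact binomial interval 6.32 to 8.45) and in 61.6% with panobinostat (59.5 to 63.6). Unthinned, the shares were 10.9% and 84.8%. Ctsf was seen in 5.37% (4.51 to 6.35) and 31.6% (29.6 to 33.5), against 7.71% and 56.2% unthinned. For Gusb the shares were 62.9% (60.96 to 64.9) and 21.2% (19.5 to 22.97), against 76.3% and 41.1% unthinned. Ctsl and Ctsd were seen in at least 99.5% of thinned cells of either library, so that their difference lay in molecules per cell: the mean thinned cell held 16.7 and 67.9 UMIs of Ctsl, and 16.03 and 30.3 of Ctsd. The share of Grn was 73.9% and 98.02% (82.7% and 99.4% unthinned) and that of Ppt1 54.02% and 87.8% (67.03% and 96.9% unthinned). Tfeb was seen in 7.66% and 7.38% of cells, with overlapping intervals, against 12.5% and 16.2% unthinned. No sorted cell type here lacks these genes, so UMIs from free RNA were not measured.

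**Figure D4:**
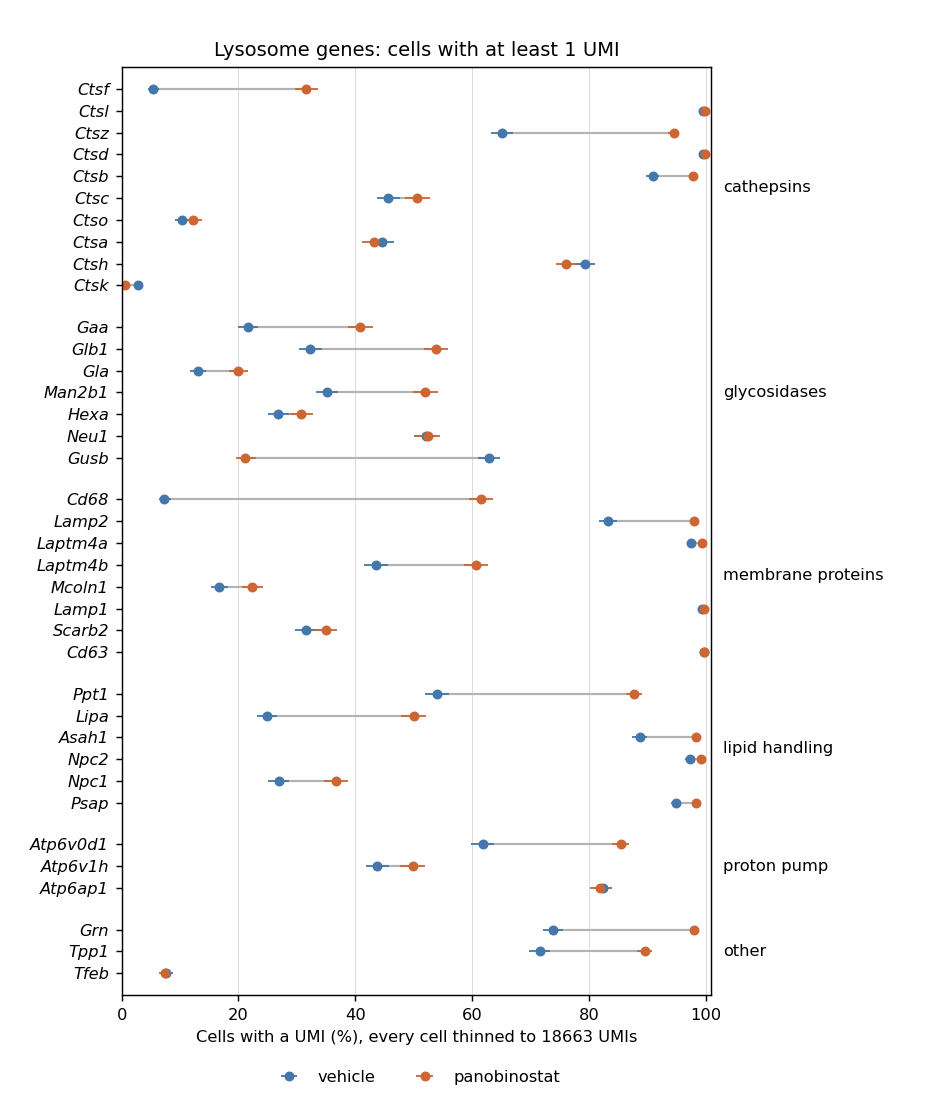
Percent of cells with at least 1 UMI of each lysosome gene after every cell was thinned to 18663 UMIs, with exact binomial 95% intervals, in the vehicle (blue) and panobinostat (orange) libraries. Cd68 (7.33% and 61.6%) and Gusb (62.9% and 21.2%) show the widest gaps in either direction.

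Genes of related lists were also more often higher than lower. Over 10 lists of 158 other genes of lysosomes, their supply and autophagy, 154 had a row and 122 passed the floor, of which 28 (23.0%) were called higher and 1 lower, beside 9.85% and 11% of all genes. The median log2 ratio was 0.44. Of the 28, 9 were under the floor with vehicle and passed it only through panobinostat, which favours a call in that direction: Bnip3, Ctns, Dpp7, Gnptg, Hyal1, Mfsd12, Mitf, Plekhm1 and Rragd. By list, the share called higher ran from 7.69% (fusion and positioning) to 37.5% (mannose 6-phosphate sorting, 3 of 8). These counts depend on the scaling and on the cells used. In no list did the count called higher rise with TMM factors, with DESeq2 size factors or in cells called G1, and in several it fell. For mannose 6-phosphate sorting it was 2, 1 and 3 in that order. Among other lysosomal proteases, 2 of 6 genes past the floor were higher, the dipeptidyl peptidase Dpp7 (2.20 and 18.6 CPM, log2 ratio 3.08) and the asparaginyl endopeptidase Lgmn, which matures cathepsins (53.1 and 123.7 CPM, 1.22). Cpq and Pcyox1 (both 0.76) stayed under 2-fold. Pcyox1 is 1 of these 6 listed genes but encodes an oxidase, not a protease. Of the cathepsin inhibitors, cystatin C, Cst3, was higher (291 and 731 CPM, 1.33), while Cst6 (0.88) and cystatin B, Cstb (0.44), stayed under 2-fold. Among other glycosidases and sulfatases, 3 of 13 were higher, among them the hyaluronidase Hyal1 (1.88). The count was 2 with TMM factors and 2 in cells called G1. Manba, a beta-mannosidase, lay just under 2-fold (0.95). Among other lipid enzymes, 2 of 11 were higher, Pld3 (27.6 and 118.6 CPM, 2.10) and the GM2 activator Gm2a (60.9 and 176.6 CPM, 1.54). The galactosylceramidase Galc, at 19.5 and 9.75 CPM, lay at the limit (-0.998) and was called lower with TMM factors.

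Among other membrane transporters and channels, 3 of 14 were higher, Mfsd12 (1.84) and the cystine carrier Ctns (1.72), and Slc38a9 (1.05), whose call ended with TMM factors (0.93). With TMM factors 1 gene of the list was called. Litaf went from 348 to 661 CPM (0.92). Of the remaining V-ATPase subunits, 3 of 14 were called, Atp6v0a1 (18.2 and 42.1 CPM, 1.21), Atp6v1a (124 and 264 CPM, 1.09) and Atp6v1e1 (183 and 376 CPM, 1.03). In cells called G1, 0 of them were (0.91, 0.96 and 0.80). With TMM factors and with DESeq2 size factors 1 was called, since Atp6v1a (0.98 and 0.97) and Atp6v1e1 (0.92 and 0.91) fell short. Atp6ap2, the prorenin receptor, was higher by less (0.68). In the sorting of enzymes by mannose 6-phosphate, Sort1 (1.16), Gga2 (1.12) and Gnptg (1.017) were higher and Nagpa, the enzyme that uncovers the tag, was lower (10.8 and 4.36 CPM, -1.31). Gnptg fell short with TMM factors (0.90), Gga2 with DESeq2 size factors (0.99), and Nagpa with the floor set on the mean of both libraries. In fusion and positioning 1 of 13 was called, a share near that of all genes. This was Plekhm1 (7.43 and 16.2 CPM, 1.12), whose call ended with DESeq2 size factors (0.997) and in cells called G1 (0.89). Arl8b (0.91) and Vps11 (0.81) stayed under 2-fold, as did Vps16 (-0.66).

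Of the factors and regulators around Tfeb, 3 of 14 past the floor were higher. Rragd, a Rag GTPase that recruits mTORC1 to lysosomes, stood at 6.96 and 41.1 CPM (log2 ratio 2.56, interval 2.44 to 2.68), Mitf at 4.36 and 11.2 CPM (1.36, not called with the floor on the mean of both libraries) and the Ragulator subunit Lamtor2 at 130.2 and 309 CPM (1.25). The Rag GTPase Rraga went from 132 to 258 CPM (0.97). Tfe3 stood at 15.97 and 20.7 CPM (0.37). Autophagy genes had 7 of 26 called higher and 0 lower, with a list median of 0.62. The mitophagy receptor Bnip3 (6.64 and 39.4 CPM, 2.57), Atg12 (34.3 and 110.2 CPM, 1.69), Gabarapl2 (233 and 626 CPM, 1.43) and Map1lc3a (104 and 236 CPM, 1.18) led them. In cells called G1 the count was 3 and Map1lc3a was not among them (0.68). With TMM factors the count was 5 and with DESeq2 size factors 4.

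**Figure D5:**
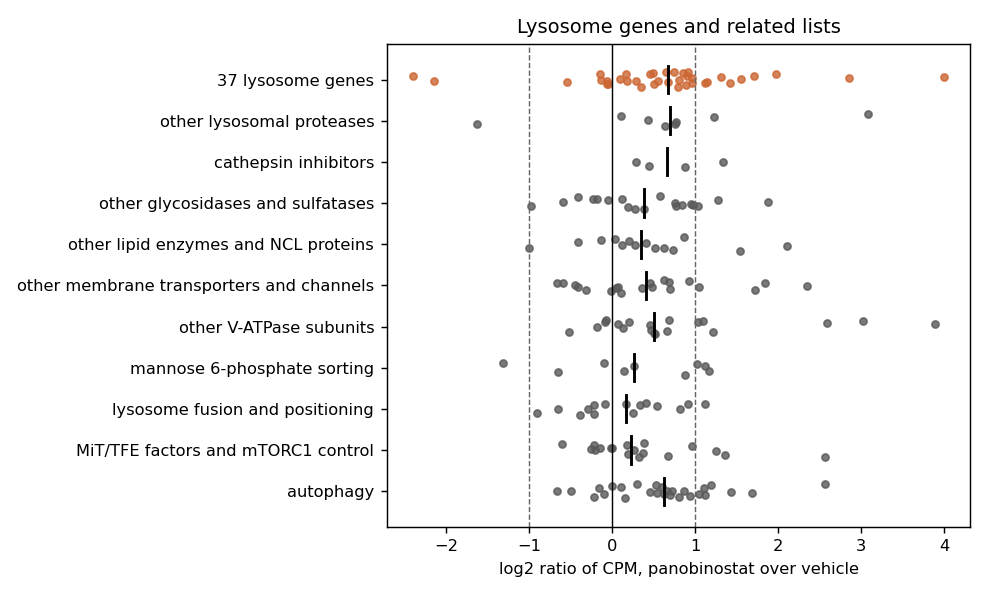
Log2 ratio of CPM, panobinostat over vehicle, for each of the 37 lysosome genes (orange) and for the genes of 10 related lists (grey) with UMIs in both libraries; black bars mark medians and dashed lines 2-fold. The median was 0.67 for the 37 genes, 0.62 for autophagy and 0.16 for fusion and positioning.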

How the data were processed

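Single-cell libraries of 1 vehicle and 1 panobinostat culture were compared over 37 lysosome genes. The deposited matrix holds raw UMI counts with no normalization by the authors. Cell Ranger 3.0.1 and build mm10 are named, per the submitters' processing notes. Filters on cells and genes are not given in the sources used here. All 5135 deposited cells were kept, no doublet caller was run, and 0 barcodes were shared between libraries. Each other value in the deposited barcode list is a cell's name with its library mark, read as control for vehicle.

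Counts were summed per library and scaled to 1000000 (CPM). Log2 ratios have exact conditional binomial intervals, single CPM values exact Poisson intervals and shares exact Clopper-Pearson intervals, at 95%, for counting error only. Intervals widen towards low counts. Phases were scored with scanpy 1.11.5. Thinning was to the 10th percentile of cell totals. Coordinates are from GENCODE M21 on GRCm38, the assembly of mm10. Scaling alternatives used edgeR 4.0.16 and DESeq2 1.42.0, in R 4.3.3 and Python 3.11.15.

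The members and lists were chosen with earlier results of these data known. All members are named, and of each related list up to 4 genes past the floor with the largest absolute log2 ratio. Tfe3, the overlapping neighbours and the common reference genes were named after values were seen. Some genes of these lists are not reported here. No protein is printed because no protein table was used here. Medians run over all genes with a UMI in both libraries.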

Additional observations from a re-analysis of the deposited data

How the results depend on the processing

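No paired analysis was possible because each group has 1 library, and no replicate could be left out. With TMM factors the median log2 ratio of the 37 genes was 0.55, of cathepsins 0.39, membrane proteins 0.51, lipid handling 0.69 and the proton pump 0.17, and the summed ratio 0.84. With DESeq2 size factors these were 0.54, 0.38, 0.50, 0.68, 0.16 and 0.83, and glycosidases 0.66. These scalings put the median of all genes at -0.19 and -0.20. Centred on the median gene, the median was 0.74, cathepsins 0.58, lipid handling 0.87 and the sum 1.03, and without the 50 top genes in the total 0.735, 0.575, 0.87 and 1.03. Unscaled UMIs per cell gave a median of 1.19, cathepsins 1.03, glycosidases 1.31, membrane proteins 1.14, lipid handling 1.33, the proton pump 0.81, a sum of 1.48 and 23 higher calls. In cells called G1 the median was 0.50, cathepsins 0.47, glycosidases 0.51, membrane proteins 0.54, lipid handling 0.56, the proton pump 0.13 and the sum 0.76. In cells of matched depth the median was 0.71, cathepsins 0.58, lipid handling 0.85 and the sum 1.05. A floor of 50 CPM gave a median of 0.90, cathepsins 0.92, membrane proteins 0.82, the proton pump 0.45 and glycosidases -2.15, where Gusb alone was left. A floor on the mean of both libraries gave 0.74, cathepsins 0.79 and glycosidases 0.44. The sum was 0.98 as a mean over cells and 0.98 after thinning. A 1.5-fold limit gave 20 higher calls, and a floor of 1 CPM gave 2 lower calls, Ctsk being added. Single genes that turned were Ctsa (0.47 per cell, 0.0858 at matched depth, 0.0163 centred, 0.0146 without the top genes), Ctsh (0.38 per cell), Ctso (-0.30 in G1), Hexa (-0.0266 with TMM, -0.0362 with DESeq2, -0.43 in G1), Neu1 (0.00809 centred, 0.46 per cell, 0.0662 at matched depth, 0.00641 without the top genes), Atp6ap1 (0.00343 centred, 0.46 per cell, 0.00175 without the top genes) and Tfeb (0.37 per cell, 0.20 in G1). Causes were not tested. The calls of Ctsf, Ctsl, Ctsz, Gusb, Cd68, Ppt1 and Grn held under all 10 alternatives computed for single genes.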

Other observations

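Gusb is one of the genes in common use as a reference for quantitative PCR, and it was 4.43-fold lower here. Of 12 other common reference genes, chosen after the value of Gusb was seen, 11 passed the floor (Tbp did not), and 1 was called higher and 3 lower, beside 9.85% and 11% of all genes. B2m went from 151 to 349.9 CPM (log2 ratio 1.21), Actb from 15180 to 5606 CPM (-1.44), Ppia from 3024 to 1187 CPM (-1.35) and Tfrc from 95.7 to 38.9 CPM (-1.30). Gapdh stood at 2161 and 1945 CPM (-0.15) and Sdha at 95.8 and 116 CPM (0.28). With 1 library per treatment these are values without a test.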
